A study of Saccharomyces cerevisiae with 2 samples.

Results

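Very wide hotspots are stretches of yeast chromatin of 2000 bp or more (end minus start) that were called as 1 unbroken DNase I hotspot. They were chosen by that width alone, in the list of either strain, and numbered 375 of the 13038 hotspots deposited. The wild-type (WT) list held 180 of them among 7050 hotspots (2.55%), and the list of the Hsp90 mutant held 195 among 5988 (3.26%). Which list holds more depends on the limit, since 439 WT and 403 G170D hotspots reached 1500 bp. The data are DNase-seq, which maps DNA that DNase I cuts readily in isolated nuclei, from 2 W303 strains: the WT and a strain with the temperature-sensitive Hsp90 allele G170D. YPD cultures of both strains went from OD 0.25 to OD 0.65 at 30 °C and were then held at 37 °C for 15 min, so the heat shift is shared by both groups, and a difference that existed before it cannot be told apart from one that followed it. Each strain gave 1 library and 1 list, with unknown depth, so no difference between strains below has a replicate check or a test. The labels do not give the marker genes or Hsp90 gene copies of either strain, nor whether the allele comes from 1 clone.

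Most yeast promoters have a short nucleosome-depleted region, whereas coding bodies are covered by regularly spaced nucleosomes. Accessible chromatin that runs over whole genes is known from strongly transcribed genes, above all from heat shock genes, whose bodies lose nucleosomes when they are induced. Long stretches between genes that bind many regulators are another known kind of wide accessible region. Hsp90 is the abundant chaperone that keeps kinases, transcription factors and other client proteins folded and active.

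Wide hotspots made up 12.0% of all bases called in WT and 16.0% in G170D, 459 kb and 534 kb. WT widths had a median of 2390.5 bp (quartiles 2149.5 and 2762 bp) and reached 5345 bp. G170D widths had a median of 2531 bp (quartiles 2238.5 and 3007 bp) and reached 7246 bp. Hotspots of 4000 bp or more numbered 5 in WT and 12 in G170D. The members just inside the limit measured 2012, 2022 and 2025 bp in WT and 2003, 2004 and 2009 bp in G170D. Those just outside it measured 1998, 1998 and 1987 bp in WT and 1988, 1984 and 1982 bp in G170D, so the limit cuts a continuous range. In both lists neighbouring hotspots lay at least 151 bp apart, so closed stretches shorter than that cannot appear as gaps inside a wide hotspot. The score that the authors gave each hotspot was used for ranks inside a list, and by it 131 of the 180 WT members (72.8%, Wilson 95% interval 65.9 to 78.8) were in the top 10% of their list. The same held for 164 of the 195 G170D members (84.1%, 78.3 to 88.6). These intervals, like those below, cover counting error over hotspots only. The meaning of the score is not stated, so high ranks may follow in part from the choice by width.

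**Figure D1:**
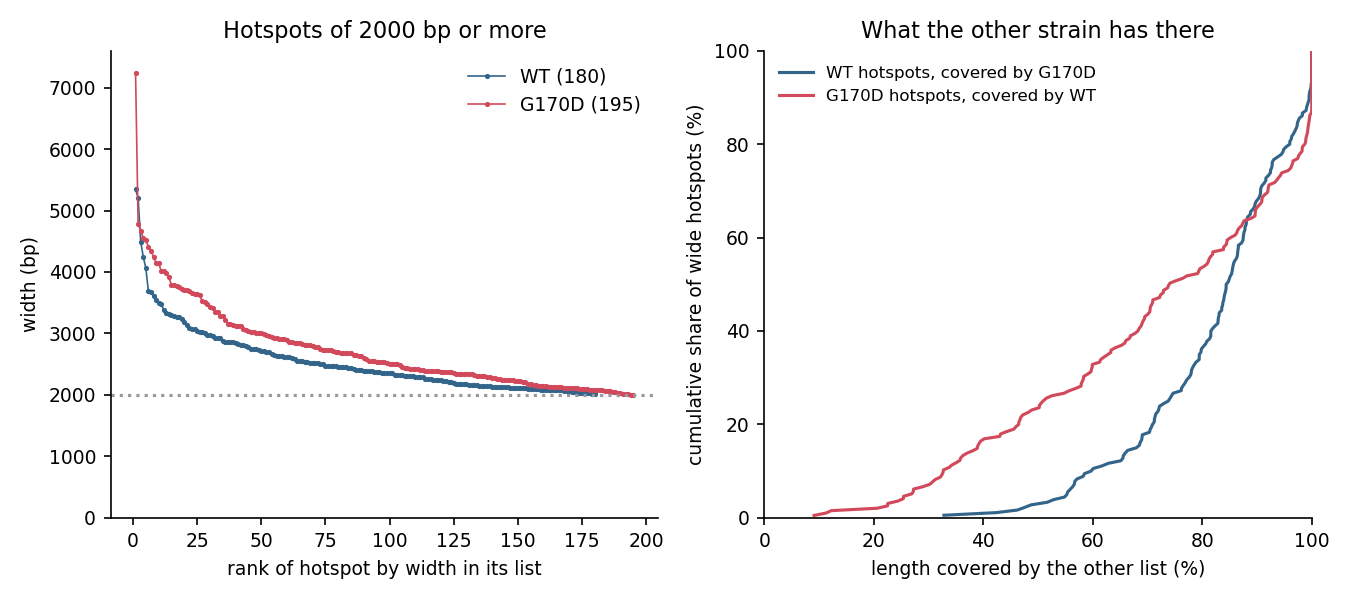
Left, width in bp of each wide hotspot against its rank by width in its own list, with the limit of 2000 bp dotted. Right, cumulative share of wide hotspots by the percentage of their length that the other strain's list covers. The curve of the G170D hotspots starts lower, at 9.09%, than that of the WT hotspots, at 32.8%.

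All 375 wide hotspots overlapped at least 1 hotspot of the other strain. The same share over all hotspots is not given here, and a longer interval meets a hotspot more easily. In each list 76 members overlapped a hotspot of the other strain that was wide as well (42.2% of the WT and 39.0% of the G170D members). These 76 pairs were one to one, which left 104 places that were wide in WT alone and 119 that were wide in G170D alone. In WT-alone places the widest G170D counterpart had a median of 1385.5 bp, with a range of 458 to 1982 bp. In G170D-alone places the widest WT counterpart had a median of 1208 bp, with a range of 140 to 1947 bp. It was under 1000 bp for 49 G170D members and 23 WT members. In both classes the largest of these counterparts came close to 2000 bp, so the numbers of such places depend on the limit.

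Over the same bases, the WT list covered less of the mutant's wide hotspots than the mutant list covered of the WT ones. G170D hotspots covered 82.5% of all bases in wide WT hotspots, and WT hotspots covered 70.6% of all bases in wide G170D hotspots. For hotspots under 2000 bp the order was the opposite, with 69.6% of WT bases covered by G170D and 84.1% of G170D bases covered by WT. For those of 1000 to under 2000 bp alone the values lay close together, at 79.3% of WT bases and 81.2% of G170D bases. The median wide WT hotspot was covered over 84.6% of its length (quartiles 74.0 and 92.7%) and the median wide G170D hotspot over 74.1% (51.3 and 96.2%). Under 50% of the length was covered for 5 of 180 WT members (2.78%, Wilson 1.19 to 6.34) and for 45 of 195 G170D members (23.1%, 17.7 to 29.5). At the other end, 13 WT and 26 G170D members lay wholly inside a single hotspot of the other strain. Members overlapped by 3 or more hotspots of the other list numbered 34 in WT and 37 in G170D.

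The bases of wide hotspots that the other strain lacked were coding more often than the bases it shared. Wide G170D hotspots held 157 kb that no WT hotspot covered, and 84.1% of it was coding, against 45.4% of the bases that WT did cover and 72.9% of the genome. Wide WT hotspots held 80.3 kb that no G170D hotspot covered, of which 66.8% was coding, against 41.2% of the covered bases. That is below the 72.9% of the genome. Hotspots under 2000 bp were also less coding than the genome, at 53.7% in WT and 49.3% in G170D. Bases outside a list's hotspots are therefore coding more often than the genome. The difference between lacked and shared bases follows in part from that. Of the bases missing from WT, 52.4% lay beyond the outermost edges of its hotspots and 47.6% in gaps between them. Of the bases missing from G170D, 39.1% lay beyond the outer edges and 60.9% in gaps.

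The wide hotspots of the mutant were also richer in coding sequence as a whole. Coding bodies took up 56.8% of the bases of wide G170D hotspots and 45.6% of those of wide WT hotspots. In hotspots under 2000 bp the coding part was 49.3% in G170D and 53.7% in WT. More than 50% of the length was coding for 125 of 195 members in G170D (64.1%) and 73 of 180 in WT (40.6%). Tandem intergenic DNA, which lies between genes that point the same way, made up 20.3% of wide G170D and 26.5% of wide WT bases. Divergent intergenic DNA, which holds a promoter on either side, made up 19.8% and 21.4%, and convergent DNA between gene ends 3.11% and 6.41%. Genes of transfer RNAs, which bind their own polymerase III factors, touched wide hotspots in 33 of 275 cases in WT and 19 in G170D, and hotspots of any width in 165 and 163. For small nucleolar RNA genes the counts were 14 of 76 in WT and 7 in G170D, and 59 and 45 for any width.

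The wide hotspots were spread over all 16 chromosomes, and the largest differences in density were on the small chromosomes III and I. Chromosome III carried 4 wide hotspots in WT and 10 in G170D, or 1.27 and 3.16 per 100 kb. Chromosome I carried 2 and 6, or 0.882 and 2.64 per 100 kb. The genome as a whole had 1.49 per 100 kb in WT and 1.62 in G170D. These were also the only 2 chromosomes on which G170D hotspots of any width covered more bases than WT hotspots, at 30.5% against 26.9% of chromosome III and 24.0% against 23.1% of chromosome I. The other 14 had less coverage in G170D. Read depth per chromosome is unknown, so a difference in the copy number of chromosomes I and III was not tested. This also bears on the hotspots of chromosomes I and III described below. Several chromosomes went the other way, the most on chromosome XV, with 19 wide hotspots in WT and 13 in G170D. Chromosome II had 10 and 6, and chromosomes VII, X, XII and XVI also carried fewer in G170D. Within 30 kb of chromosome ends there were 4 wide WT hotspots (2.22%) and 3 wide G170D hotspots (1.54%). Of all hotspots, 4.04% in WT and 4.39% in G170D lay there.

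**Figure D2:**
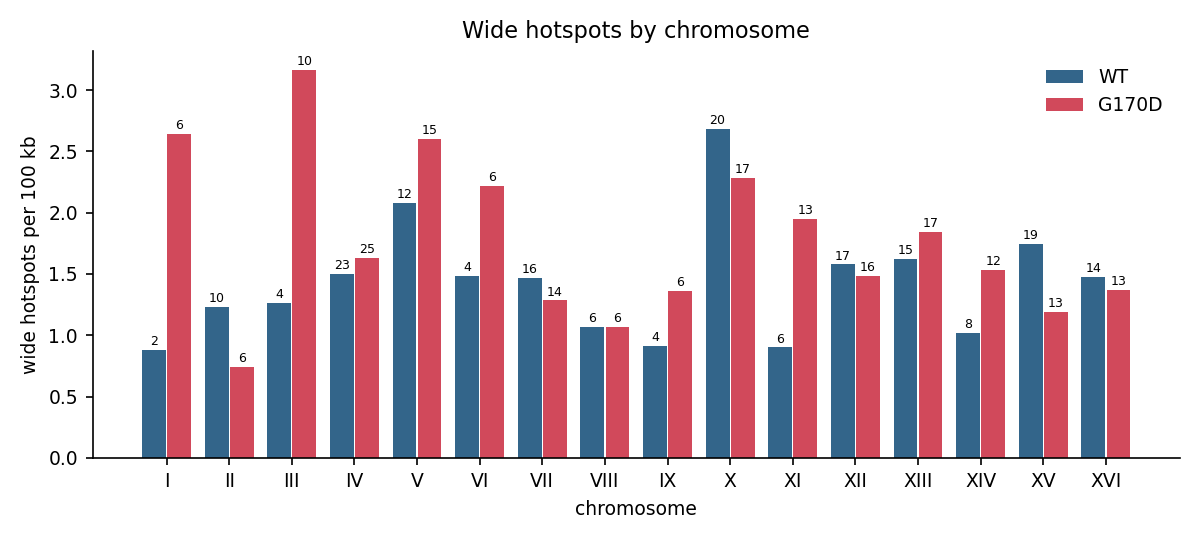
Wide hotspots per 100 kb on each chromosome, with their number above each bar, for WT and G170D. Chromosomes I and III have the largest excess in G170D, with 6 against 2 and 10 against 4 hotspots.

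Coordinates below are sacCer3 positions counted from 1, and gene positions are from RefSeq assembly R64, which is the same build. A coding gene was counted as spanned when at least 50% of its annotated coding body lay in a wide hotspot. By this limit 228 of 6002 coding genes were spanned in WT (3.8%), 310 in G170D (5.16%) and 445 in either list (7.41%). Hotspots of any width covered at least 50% of the body of 1301 genes in WT (21.7%) and 1160 in G170D (19.3%). Spanned in both strains were 93 genes (1.55%), in WT alone 135 (2.25%) and in G170D alone 217 (3.62%). Short genes reach the limit more easily, and the spanned genes had a median length of 501 bp where wide in both, 691 bp in WT alone and 930 bp in G170D alone, against 1200 bp for all coding genes. In 37 WT and 23 G170D members no coding gene was spanned, and in 13 and 32 members 3 or more were. DNase I cuts carry no strand, so overlapping genes cannot be told apart.

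For genes spanned in 1 strain, average coverage in the other strain was highest in the first of 3 equal parts of the coding body. For the 217 genes wide in G170D alone, WT hotspots of any width covered on average 52.3% of the first part, 42.7% of the middle part and 44.9% of the last part. For the 135 genes wide in WT alone, G170D hotspots covered 70.8%, 57.2% and 56.9%. The first part was also highest over all coding genes, with 35.4%, 24.7% and 28.5% in WT and 31.9%, 21.8% and 24.4% in G170D for the first, middle and last. Among the 217 genes, 39 were wholly covered in WT too, without being spanned by a wide hotspot, and 17 had no WT coverage. Among the 135 genes, 36 were wholly covered in G170D and 2 had no coverage. A body covered at least 50 percentage points more in G170D was found for 104 of the 217 genes and for 4.02% of all coding genes. One covered at least 50 points less was found for 32 of the 135 genes and for 2.77% of all coding genes. Both counts follow in part from the choice of genes by width and are given as a description.

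**Figure D3:**
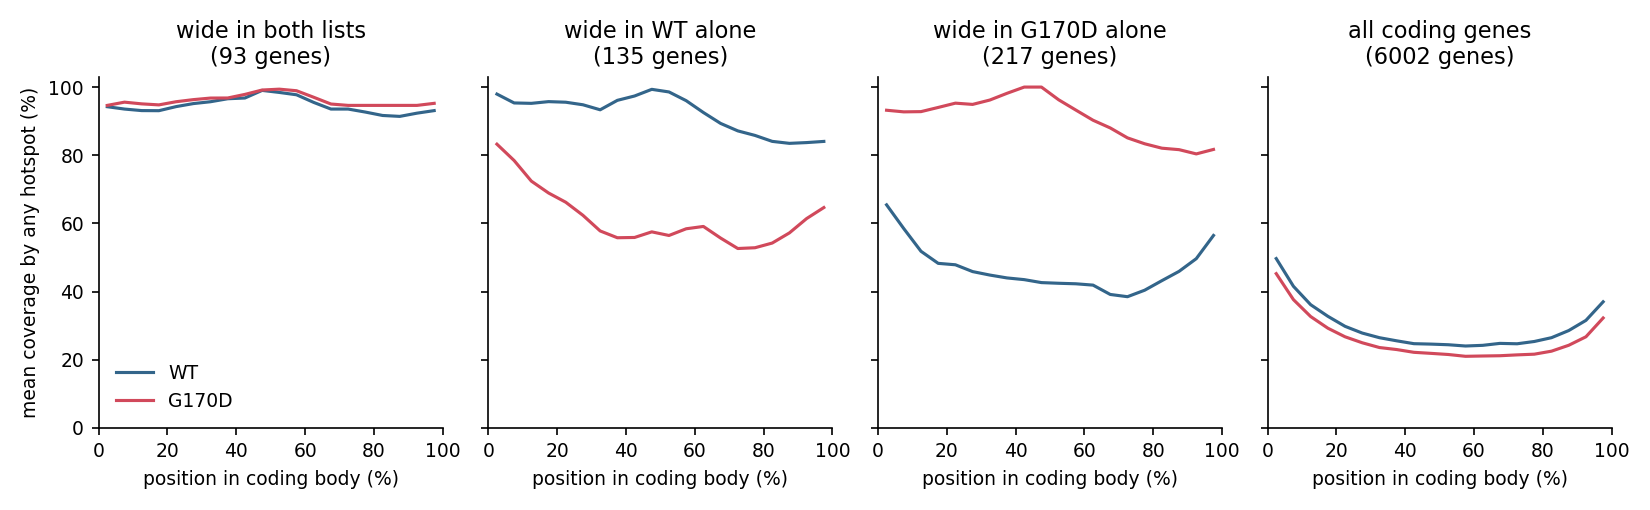
Mean percentage of the coding body covered by hotspots of any width, from the start (0%) to the end (100%) of the body, for genes spanned by wide hotspots in both lists, in WT alone or in G170D alone, and for all coding genes. Blue is WT and red is G170D. In both 1-strain classes the other strain's curve is highest in the first part of the body.

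Among the genes wide in both strains was HSP82, the heat-inducible Hsp90 gene, which lies in the second widest WT hotspot. Both strains covered the whole of its body and the 500 bp before it, together with at least 98.4% of CIN2, the tubulin-folding gene behind it. The WT hotspot continued over the start of the IQG1 coding body, where G170D had a separate piece of 296 bp. HSC82, its constitutive partner, was not in a wide hotspot, and hotspots covered 5.005% of its body in WT and 2.64% in G170D.

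Several wide regions were nearly the same in both strains. Within 100 bp on both edges the 2 hotspots matched in 20 of the 76 pairs. At CYC3, which encodes cytochrome c heme lyase, and CDC19, the pyruvate kinase gene, WT had 4495 bp (chromosome I, 67571 to 72065) and G170D 4519 bp. At CWP2, a cell wall mannoprotein gene, and the neighbouring CWP1 (chromosome XI, 257822 to 261364 in WT) the widths were 3543 and 3636 bp. At LEU2, a leucine synthesis gene much used as a strain marker, they were 2633 and 2630 bp (chromosome III, 90672 to 93304 in WT). At PET9, the mitochondrial ADP/ATP carrier gene (chromosome II, 163427 to 165813 in WT), both measured 2387 bp. The hotspot that spans BRP1 and reaches into the start of PMA1, the plasma membrane proton pump gene (chromosome VII, 482394 to 485896 in WT), had 3503 bp in WT and 3768 bp in G170D. Across the 76 pairs G170D was wider in 30, narrower in 45 and equal in 1. The median difference was -46 bp (quartiles -329.5 and 126.75 bp), and the extremes were -2037 and 2464 bp.

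Among the wide hotspots that spanned no coding gene were long intergenic regions, several of them next to regulator genes. CTT1, the cytosolic catalase gene, and its divergent neighbour PDC6 shared a hotspot whose 1652 bp intergenic region was wholly open in both strains. The region between MSN4, a general stress activator gene, and YKL063C (chromosome XI, 321297 to 323614 in WT) had 2318 bp in WT and 2083 bp in G170D. HAP4, which encodes the activating subunit of the respiratory gene regulator (chromosome XI, 229826 to 232285), had an upstream hotspot that measured 2460 bp in the WT list and 2277 bp in the other. TEC1, a filamentation regulator gene, and UBC4 (chromosome II, 407011 to 409250) had 2240 and 2239 bp. IME2, a meiotic kinase gene (chromosome X, 222600 to 224808), had 2209 and 2168 bp. Each of these regions was a single hotspot in both lists.

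Other intergenic members were a single hotspot in WT and several or shorter ones in G170D. Upstream of MRH1, a plasma membrane protein gene (chromosome IV, 505302 to 508371), the 3070 bp WT hotspot met 3 G170D hotspots, the widest of 1020 bp. At THI4, a thiamine synthesis gene (chromosome VII, 777531 to 780537), 3007 bp in WT compared with pieces of 2128 and 302 bp in G170D. Between CRH1 and HIP1, the histidine permease gene (chromosome VII, 878085 to 880685), 2601 bp was covered over 65.1% in G170D. The WT hotspots upstream of HXT3 and HXT1, both glucose transporter genes, were covered over 58.3% and 55.9% of their length.

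Several of the widest WT hotspots were covered in separate pieces in the mutant. The widest, 5345 bp between MID2 and NUP2 (chromosome XII, 792116 to 797460), took in RPS25B, a ribosomal protein gene, and 3457 bp of convergent intergenic DNA. G170D had 3 hotspots there, the widest of 3416 bp, and RPS25B stayed wholly covered. At the divergent histone genes HTA2 and HTB2, which encode H2A and H2B (chromosome II, 234415 to 238481), WT had 4067 bp without a gap and G170D had 5 pieces of 1019, 924, 927, 215 and 82 bp. The body of HTA2 was covered over 100% in WT and 44.9% in G170D, and that of HTB2 over 100% and 31.8%, while the promoters of both stayed fully covered. At RER1, a Golgi sorting gene (chromosome III, 111594 to 115840), 4247 bp in WT met pieces of 1702 and 2210 bp. Around COX7, a cytochrome oxidase subunit gene (chromosome XIII, 777489 to 781179), 3691 bp met 3 pieces that covered 71.4%, and the body of PET111, a COX2 translation activator gene, was covered over 83.2% in WT and 51.9% in G170D. Another member (chromosome VII, 316589 to 320262) spanned USE1 and held 2183 bp of the region between USE1 and SRM1. There and at RPL41A and LYS20 (chromosome IV, 129925 to 133539), G170D kept 86.3% and 84.9% of the length in 3 pieces each.

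The WT members with least G170D coverage lay at genes of varied function. The lowest was at CAF20, a cap-complex inhibitor gene, and HEM4, a heme synthesis gene (chromosome XV, 841125 to 843495), where 32.8% of 2371 bp was covered. CAF20 was covered over its whole body in WT and not at all in G170D. At CSN9, a signalosome subunit gene, and NVJ3 (chromosome IV, 818545 to 821330), 42.3% of 2786 bp was covered, and the body of NVJ3 went from 100% to 14.4%. The others were at the meiotic genes SPO22 and HOP1 (chromosome IX, 46.2% covered) and at OXA1 and BEM2 (chromosome V, 47.5%), neither of which spanned a coding gene, and at DSE1, a daughter cell gene (chromosome V, 48.7%). Besides HTA2 with HTB2, those in most pieces were at YSA1 and SUS1 (chromosome II), RPS25A (chromosome VII), MRPL50 (chromosome XIV) and UBX6 (chromosome X), each meeting 4 G170D hotspots.

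Several of the 10 widest G170D hotspots ran over genes that met separate pieces in WT, whereas those at CYC3 and HSP82 each met a single WT hotspot. The widest of either list, 7246 bp on chromosome III, ran from RRT12 to the start of RSC6 and met 6 WT pieces of 477, 143, 587, 982, 37 and 162 bp, which covered 30.2% of it. Within it the body of ARE1, a sterol acyltransferase gene, was covered over 26.1% in WT and 100% in G170D. The body of BUD23, an rRNA methyltransferase gene, was covered over 24.6% and 100%, and that of IMG1, a mitochondrial ribosomal protein gene, over 48.4% and 100%. At GLK1, the glucokinase gene, and GID7, a ubiquitin ligase subunit gene (chromosome III, 49636 to 54417), 4782 bp in G170D met WT pieces of 1501, 652 and 287 bp. These covered 51.0% of it. GLK1 was covered over 64.7% in WT and 100% in G170D, and GID7 over 42.0% and 79.2%.

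Histone chaperone and stress kinase genes lay in other members of this kind. At NAP1, a histone chaperone gene, and PLN1, a lipid droplet protein gene (chromosome XI, 523279 to 527417), 4139 bp met 5 WT pieces of at most 318 bp that covered 26.9%. NAP1 was covered over 29.5% in WT and 100% in G170D. At CAC2, a chromatin assembly factor gene, and the start of TSL1, a trehalose synthase subunit gene (chromosome XIII, 67434 to 71983), 4550 bp met 4 WT pieces. These covered 59.9% of it, and CAC2 was covered over 27.2% in WT and 100% in G170D. From CCW12, a cell wall protein gene, to HOG1, the osmotic stress kinase gene (chromosome XII, 369265 to 373935), 4671 bp met 4 WT pieces. These covered 81.2% of it, and the widest was itself a wide WT hotspot of 2207 bp. HOG1 was covered over 46.9% in WT and 100% in G170D.

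The others of the 10 widest held metabolic and mitochondrial genes. At RSM7 and TDA4 (chromosome X, 637540 to 641953) 4414 bp met 5 WT pieces that covered 46.5%. At CAR2, the ornithine transaminase gene, and MRPL4 (chromosome XII, 1010673 to 1015017) 4345 bp met 2 WT pieces that covered 75.2%. MRPL4 was covered over 0% in WT and 54.9% in G170D. At GUT2, the mitochondrial glycerol phosphate dehydrogenase gene, and RRD1 (chromosome IX, 52410 to 56657) 4248 bp held a WT hotspot of 2754 bp. WT covered 69.0% of this length, and GUT2 was covered over 24.3% in WT and 73.0% in G170D.

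The G170D members with least WT coverage met only short WT hotspots, and all but the one at HPF1 spanned a coding gene. The lowest was at HEM1, the gene of the first enzyme of heme synthesis (chromosome IV, 926640 to 928950), where 2311 bp met a single WT hotspot of 210 bp, or 9.09%. The body of HEM1 was covered over 12.8% in WT and 91.0% in G170D. At HPF1, a cell wall glycoprotein gene (chromosome XV, 30497 to 32531), 2035 bp met a single WT hotspot of 244 bp, which covered 11.3% of the length. Of the 2035 bp, 925 bp was divergent intergenic DNA. At DSK2, a ubiquitin shuttle gene (chromosome XIII, 817802 to 820804), 3003 bp met 4 WT pieces of at most 140 bp, and its body was covered over 22.3% and 100%. At ATS1 and FUN30, a nucleosome remodeller gene (chromosome I, 112363 to 115410), 3048 bp was covered over 20.6%. At SAM1, an S-adenosylmethionine synthetase gene (chromosome XII, 513599 to 516405), 2807 bp was covered over 22.5%, and the body of SAM1 was covered over 0% in WT and 99.6% in G170D.

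Some wide members were contained in a wider one of the other strain. G170D hotspots lay inside WT ones at MRPL24 (2968 bp inside 3486 bp, chromosome XIII), at CPR1, the cyclophilin A gene (2962 inside 3268 bp, chromosome IV), at MET28, a sulfur regulator gene (2789 inside 3090 bp, chromosome IX), and at PIC2, a mitochondrial carrier gene (2706 inside 3316 bp, chromosome V). WT hotspots lay inside G170D ones at PUT4, the proline permease gene (3242 inside 4012 bp, chromosome XV), and at POP6 and GSC2, a glucan synthase gene (2930 inside 3646 bp, chromosome VII). At GUT2 to RRD1 the same held for the pair described above.

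**Figure D4:**
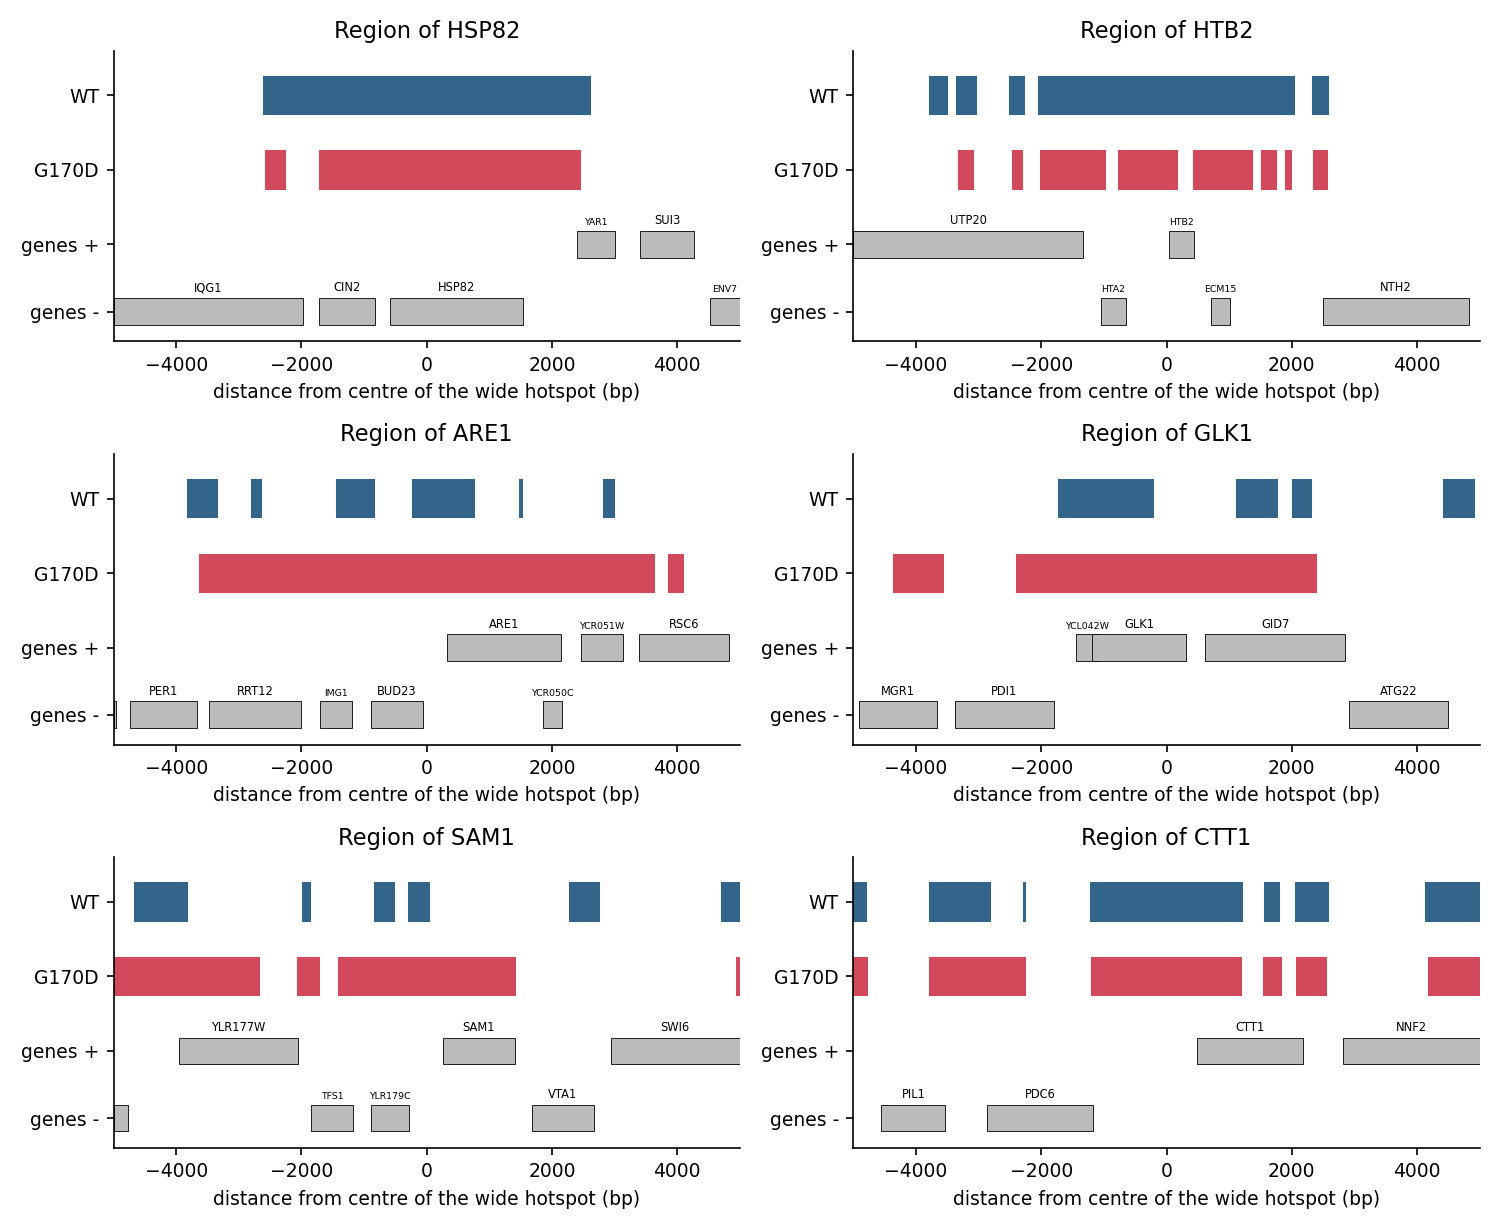
Hotspots of WT (blue) and G170D (red) and annotated coding genes on the plus and minus strand, drawn to scale within 5000 bp of the centre of a wide hotspot, for 6 of the regions described. HSP82 and CTT1 are wide in both strains, the HTB2 region is wide in WT alone with 5 pieces in G170D, and the ARE1, GLK1 and SAM1 regions are wide in G170D alone.

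For 13 gene lists, the number of members spanned was set beside the 3.8% of all coding genes spanned in WT and the 5.16% spanned in G170D. No list was tested. By percentage of members, histone genes stood highest in WT (20%) and oxidative stress genes in G170D (23.8%).

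Cytosolic ribosomal protein genes were spanned more often in WT, with 16 of 137 members (11.7%) against 6 (4.38%) in G170D. Wide in WT alone were 13, in both 3 and in G170D alone 3. Not all of these bodies were covered less in the G170D list. RPL41A, RPL43B, RPL17B, RPS29A and RPS30A were covered over 100% in both lists, by narrower hotspots in G170D. RPL24B was covered over 100% in WT and 23.7% in G170D, RPL36A over 77.3% and 25.3%, and RPS25A over 100% and 45.6%. These 3 had the least G170D coverage of the 13. RPL33B was covered over 78.8% and 45.9%, and RPS18A was nearly unchanged at 67.0% and 66.4%. RPS10B, RPS21B and RPS25B were wide in both strains, and RPL36B, RPS26B and RPS30B in G170D alone. The body of RPS26B was nevertheless covered more in WT (100%) than in G170D (79.4%). Many of these genes have a near-identical copy, and no source used here says how reads that match both were placed. With a limit of 1500 bp the counts were 23 in WT and 15 in G170D.

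Of 21 oxidative stress genes, 2 were spanned in WT (9.52%) and 5 in G170D (23.8%). SOD1, the copper-zinc superoxide dismutase gene (chromosome X), was covered over 34.0% in WT and 100% in G170D. TSA1, the main peroxiredoxin gene (chromosome XIII), was covered over 35.7% and 100%, and of its 500 bp promoter window the WT list covered 0 bp and the G170D list all. OYE3, an NADPH oxidoreductase gene (chromosome XVI), was covered over 6.57% and 98.5%. SRX1, the sulfiredoxin gene, was fully covered in both, and GTO3, a glutathione transferase gene, was wide in both with 72.4% and 100%. AHP1, another peroxiredoxin gene (chromosome XII), went the other way with 100% in WT and 51.2% in G170D.

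Of 26 Hsf1 chaperone genes, 3 were spanned in each strain (11.5%), but only HSP82 was in both. HSP10, the mitochondrial co-chaperonin gene (chromosome XV), was wide in WT alone and covered over 100% and 41.7%. CUR1, a protein sorting factor gene (chromosome XVI), was covered over 100% and 72.9%. The J-domain chaperone genes SIS1 (chromosome XIV) and MDJ1 (chromosome VI) were wide in G170D alone, SIS1 with 39.5% in WT and 100% in G170D and MDJ1 with 63.7% and 100%. Of 33 general stress genes of Msn2 and Msn4, 1 was spanned in WT (3.03%) and 4 in G170D (12.1%). HOR7 was wide in both. DDR2, a small stress protein gene (chromosome XV), was covered over 0% in WT and 100% in G170D, SOD2 over 20.8% and 97.6%, and GLK1 as given above.

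Of 10 histone genes, 2 were spanned in WT, the HTA2 and HTB2 pair in its single hotspot, and 0 in G170D. The median histone gene body was covered over 23.4% in WT and 27.6% in G170D by hotspots of any width, and HHO1, the linker histone gene, over 26.4% and 67.2%. Of 30 cell wall protein genes, 1 was spanned in WT and 3 in G170D. CCW12 was covered over 55.0% in WT and 100% in G170D, HSP150, a glucan-linked protein gene, over 30.0% and 100%, and CWP2 over 100% in both. Of 68 genes for DNA-binding regulators, 3 were spanned in WT (4.41%) and 4 in G170D (5.88%), near the 3.8% and 5.16% of all coding genes. None was spanned in both, against 1.55% of all coding genes. The counts thus do not set regulators apart from other genes. NRG2, a glucose repressor gene, was covered over 100% in WT and 36.5% in G170D, YAP6 over 100% and 58.1%, and TYE7, a glycolytic activator gene, over 60.8% and 26.6%. HAC1, which encodes the unfolded protein response activator (chromosome VI), was covered over 18.1% and 100%, HMS2 over 4.55% and 100%, IXR1 over 16.1% and 64.8%, and GAT1, a nitrogen regulator gene, over 55.3% and 86.6%.

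The remaining lists had at most 1 spanned member in a strain. ADH1, the main alcohol dehydrogenase gene (chromosome XV), was the only spanned member of 17 glycolysis and fermentation genes, covered over 24.1% in WT and 100% in G170D. WHI5, the G1 repressor gene, was the only one of 14 cyclin and cyclin-control genes, wholly covered in both but in a wide hotspot in G170D alone. HYP2, the gene of translation factor eIF5A, was the only one of 16 translation factor genes, and PUT4 the only one of 23 permease genes, each wide in both strains. None of 13 hexose transporter and glucose sensor genes and none of 8 mating-type and silent cassette genes was spanned in either strain.

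**Figure D5:**
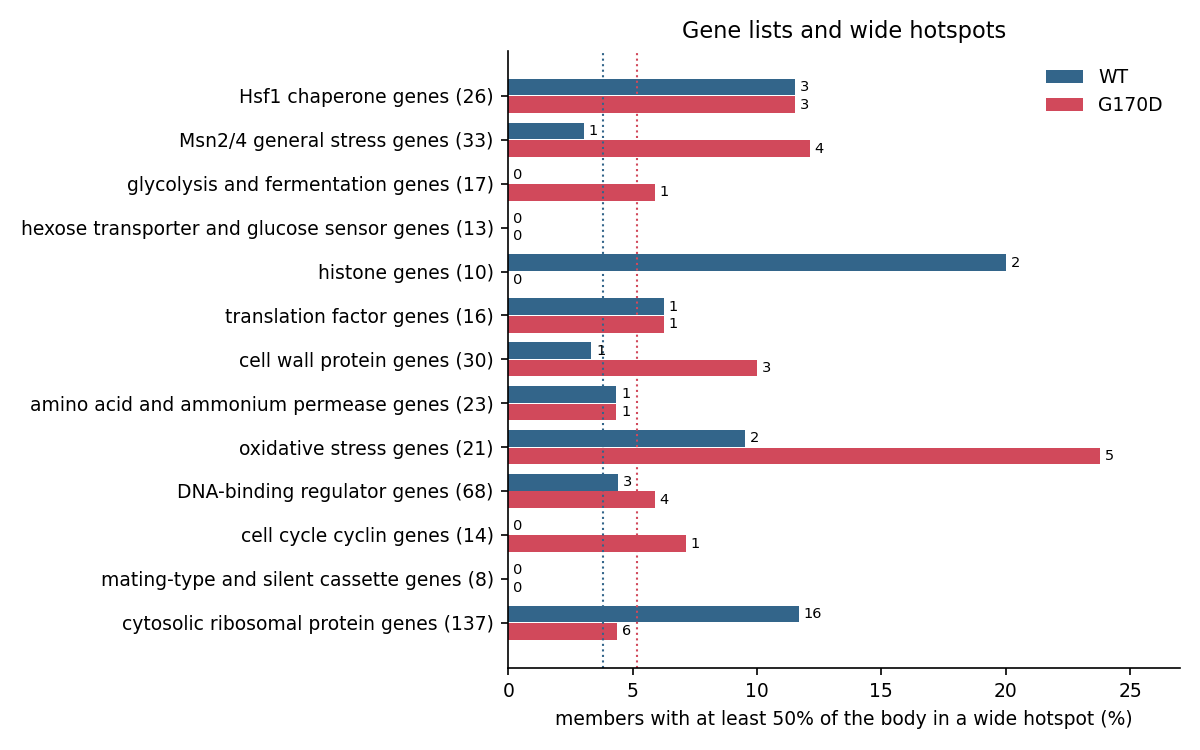
Percentage of the annotated members of each gene list with at least 50% of the coding body in a wide hotspot, for WT and G170D, with the number of members at each bar and the size of the list in brackets. Dotted lines mark the 3.8% (WT) and 5.16% (G170D) of all coding genes. Ribosomal protein genes stand at 16 in WT and 6 in G170D, and oxidative stress genes at 2 and 5.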

How the data were processed

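DNase-seq hotspots of 1 WT and 1 G170D library were analysed. Per the submitters' processing notes, FastQC 0.10.1 and Bowtie 1.0.0 were used with sacCer3, the S288C reference, while both strains are W303. No source used here states how hotspots were called, filtered or joined, and the called width can move with depth and digestion. The authors deposited 1 list per sample, with a score of unstated meaning per hotspot, used only to rank hotspots within a list. Depth is unknown.

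Members are intervals of at least 2000 bp, end minus start. Coverage is the share of a region's bases inside any hotspot of a list, and pieces overlap by at least 1 bp. Genes are the 6002 protein-coding genes of RefSeq R64, which holds coding bodies without untranslated regions, with strand read from the systematic name. Promoter windows are the 500 bp upstream. Shares have Wilson intervals, and no test was made.

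Named hotspots were, per list, the 10 widest, the 5 least and 5 most covered by the other list, the 5 in most pieces, those next to the limit, and up to 6 spanned members per gene list. For ribosomal protein and regulator genes more were named, and the intergenic members and the pairs of similar width were chosen after their values were seen. Members and lists were chosen with earlier results of these data known. No sequence was used here, so a planned motif count was not run. The coverage code was tested on simulated intervals. Python 3.11.15, numpy 2.4.6, pandas 2.3.3 and scipy 1.17.1 were used.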

Additional observations from a re-analysis of the deposited data

How the results depend on the processing

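The number of wide hotspots was set by the width limit: 439 in WT and 403 in G170D at 1500 bp, 73 and 101 at 2500 bp, and 28 and 50 at 3000 bp. Thus G170D had more members at 2000, 2500 and 3000 bp, and WT more at 1500 bp. Without chromosome ends and rDNA the numbers were 175 and 191. Merging gaps of up to 150 bp, equal list lengths or the higher-scoring 50% of a list could not change them, since no gap was that short and every member ranked above those cuts. Genes spanned were 436 in WT and 477 in G170D at 1500 bp, 57 and 131 at 3000 bp, and 424 and 518 when 1 bp sufficed. Coverage under 50% was found for 0% of WT and 32% of G170D members at 3000 bp, for 17.4% of G170D members at 1500 bp, and for 8.33% and 29.7% against the higher-scoring 50% of the other list. Coverage of 90% or more applied to 44.4% of G170D members at 1500 bp and 24% at 3000 bp, where WT had 39.3%, so the order of the strains turned. Members more than 50% coding were 49.2% in WT and 55.1% in G170D at 1500 bp, and 50% and 80% at 3000 bp. Ribosomal protein genes in G170D numbered 15 at 1500 bp, and oxidative stress genes in WT numbered 1 when the whole body was required. The other 29 of 54 alternative values stayed within their limits, a Wilson interval for shares and a fixed ratio for counts. These 29 include the settings that could not change a value, among them gaps of up to 150 bp closed in the other list. The number therefore does not measure how stable the results are. The causes were not tested. No paired analysis was possible because each strain has 1 library. Depth, which is unknown, limits how a gap or a narrow piece can be read.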
